A study of Mus musculus with 12 samples.

Results

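The 6 mRNAs described here are the mitochondrially encoded subunits of respiratory chain complexes III to V: mt-Cytb (ENSMUSG00000064370), mt-Co1 (ENSMUSG00000064351), mt-Co2 (ENSMUSG00000064354), mt-Co3 (ENSMUSG00000064358), mt-Atp6 (ENSMUSG00000064357) and mt-Atp8 (ENSMUSG00000064356). They were chosen by gene symbol and make up 6 of the 9621 genes listed in all 12 libraries. RAW264 is a mouse macrophage line. Cells received lipopolysaccharide (LPS, an outer membrane molecule of Gram-negative bacteria that triggers inflammatory signalling in macrophages) at 100 ng/ml together with 10 µM of the glucocorticoid dexamethasone (LPS + DEX), LPS alone, or no treatment (basal), with 30 min of stimulation where given. Ribosome-protected fragments (RPF, or footprints) and poly(A) mRNA were sequenced in each condition, with 2 libraries per group. All groups share the line and the cycloheximide (100 µg/ml) given before extraction.

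Mitochondria keep a small circular genome whose protein-coding genes all serve oxidative phosphorylation, and their own ribosomes translate these mRNAs inside the organelle. Cytochrome b is a catalytic core subunit of complex III, and Co1 to Co3 form the catalytic core of cytochrome c oxidase (complex IV). Atp6 and Atp8 belong to the membrane sector of ATP synthase (complex V). The remaining subunits of each complex come from nuclear genes and are made on cytosolic ribosomes, so each complex is assembled from products of both genomes. Cycloheximide arrests cytosolic ribosomes and not mitochondrial ones, and mouse mitochondrial mRNAs carry short poly(A) tails. The Atp8 and Atp6 reading frames overlap on a shared transcript, and in RefSeq (GRCm38.p6) Atp8 overlaps Atp6 and Atp6 overlaps Co3. How reads in such overlaps were counted is not given in the sources used here, and neither is the treatment of reads shared with nuclear copies of mitochondrial DNA, so the split between these neighbours is uncertain.

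RPF libraries held 821946 to 1833560 reads and mRNA libraries 1475120 to 2529666. A member had 216 to 2085 reads in an RPF library and 463 to 30263 in an mRNA library. Values are reads scaled to the library total (CPM), and since the labels do not say whether replicates were grown on different days, the tests measure the spread between these libraries. Known targets followed the labels: Dusp1, a phosphatase induced by glucocorticoids, had 221 and 223 footprint CPM with LPS + DEX against 16.9 and 18.3 with LPS, and Tnf had 1263 and 1267 with LPS against 48.0 and 58.8 in basal cells. All 12 macrophage markers were above 3 reads in every library, with summed levels of 7294 to 7972 CPM in RPF and 5305 to 6336 CPM in mRNA. In mRNA, basal replicate 1 differed most from the others, with Spearman correlations across genes of 0.782 to 0.831 with the other mRNA libraries, against 0.894 to 0.980 among those. It also held 1108 CPM of the epithelial keratin Krt7, which was at 0 to 1.98 CPM in the other mRNA libraries. Of 22 markers of other cell types 3 are listed (Krt7, Col3a1 and Vwf). They summed to 68.1 to 151 CPM in RPF libraries, 1129 CPM in mRNA basal replicate 1 and 34.1 to 115 CPM in the other mRNA libraries, and their part in the results was not tested. Col3a1, a collagen gene of fibroblasts, passed in footprints for LPS + DEX against LPS and for LPS against basal. It did not pass for LPS + DEX against basal. Its footprints averaged 131 CPM with LPS + DEX, 63.0 CPM with LPS and 129 CPM in basal cells, with log2 fold changes of 1.04 ± 0.14 for LPS + DEX against LPS (limma, adjusted p = 0.000533) and -1.01 ± 0.14 for LPS against basal (adjusted p = 0.0006). In mRNA it was higher than in basal cells with LPS + DEX (2.99 ± 0.55) and with LPS (2.52 ± 0.55). Krt7 was singled out after its values were seen.

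In footprints, the members were lowest with LPS + DEX and, mt-Atp8 apart, highest with LPS alone. Together they took 0.157% and 0.137% of all footprint reads with LPS + DEX, 0.647% and 0.703% with LPS, and 0.314% and 0.287% in basal cells. The groups did not overlap. The LPS libraries, where the share was highest, were also the shallowest of the RPF libraries, with 829415 and 821946 reads against 1653342 and 1833560 with LPS + DEX and 1310291 and 1520612 in basal cells. The part of depth in this difference was not tested. In these bulk libraries fewer cells of a kind and less RNA per cell cannot be told apart.

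**Figure D1:**
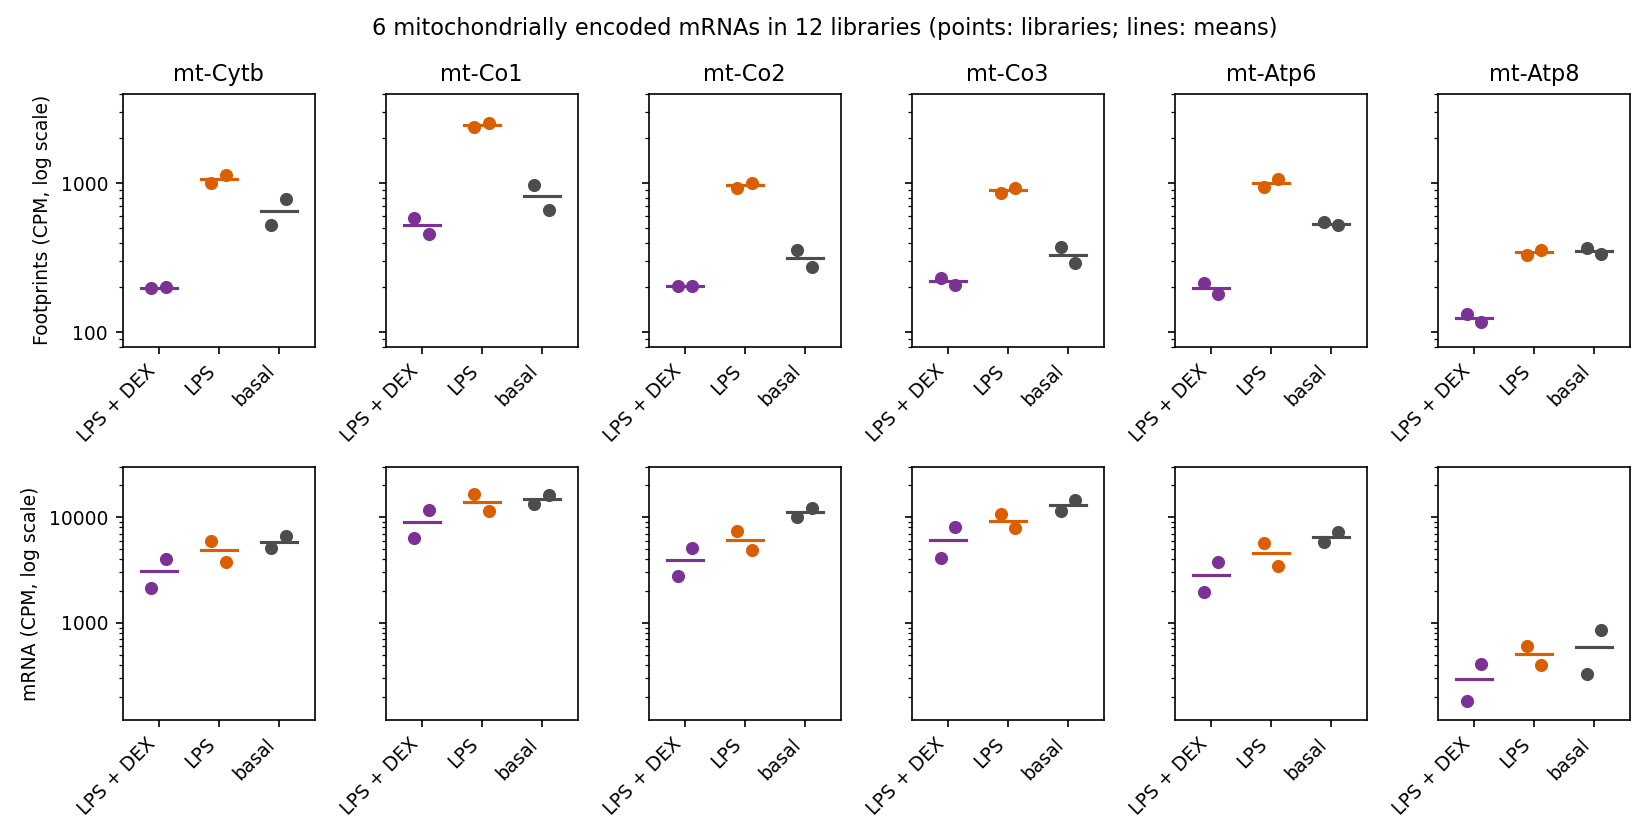
CPM of each member in every library on log axes, with footprints in the upper row and mRNA in the lower row. Points are libraries and lines are group means (n = 2). Footprints of all members but mt-Atp8 were highest with LPS, while in mRNA the LPS + DEX and LPS libraries overlapped for each member.

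For complex III, mt-Cytb footprints measured 197 and 202 CPM with LPS + DEX, 1002 and 1139 CPM with LPS, and 526 and 779 CPM in basal cells. The groups were apart, and the basal libraries differed most between replicates. The log2 fold change was -2.41 ± 0.14 (SE) for LPS + DEX against LPS (limma, adjusted p = 1.78e-07), 0.74 ± 0.14 for LPS against basal (adjusted p = 0.00559) and -1.68 ± 0.14 for LPS + DEX against basal (adjusted p = 4.88e-06). Without RPF LPS replicate 2 the rise with LPS was 0.65 and no longer passed. That fit leaves 1 library in the LPS group, and fewer of all genes passed in it. With no filter on low values the rise did not pass either (limma, adjusted p = 0.0769), with 145 of all genes higher in place of 292.

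For complex IV, footprints of the 3 core subunits moved alike. On mt-Co1, which carries the site where oxygen is reduced, they measured 585 and 457 CPM with LPS + DEX, 2394 and 2537 CPM with LPS, and 974 and 666 CPM in basal cells. The mt-Co2 mRNA encodes the subunit that takes up electrons from cytochrome c, and its footprints measured 205.6 CPM in both LPS + DEX libraries, 927 and 1009 CPM with LPS, and 354 and 274 CPM in basal cells. On mt-Co3, a core subunit without redox centres, they measured 232 and 207 CPM with LPS + DEX, 866 and 927 CPM with LPS, and 371 and 293 CPM in basal cells. In each of the 3 the order was LPS, basal, LPS + DEX, with no overlap between neighbours. For LPS + DEX against LPS the log2 fold change was -2.25 ± 0.15 for mt-Co1, -2.23 ± 0.12 for mt-Co2 and -2.03 ± 0.12 for mt-Co3 (limma, adjusted p from 6.99e-08 to 3.68e-07). For LPS against basal it was 1.61 ± 0.15 for mt-Co1, 1.63 ± 0.12 for mt-Co2 and 1.44 ± 0.12 for mt-Co3 (adjusted p from 1.18e-06 to 1.19e-05).

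For complex V the pair differed. Footprints of mt-Atp6, the proton channel subunit, measured 214 and 182 CPM with LPS + DEX, 950 and 1062 CPM with LPS, and 548 and 523 CPM in basal cells. Those of mt-Atp8, a short subunit beside the channel, measured 134 and 118 CPM with LPS + DEX, 332 and 355 CPM with LPS, and 369 and 334 CPM in basal cells. The LPS and basal libraries of mt-Atp8 overlapped, and those of mt-Atp6 did not. With LPS, mt-Atp6 rose by 0.91 ± 0.10 (log2; limma, adjusted p = 9.22e-05), while mt-Atp8 measured -0.03 ± 0.11, with a 95% confidence interval of -0.27 to 0.20 (adjusted p = 0.887). With DEX added to LPS, mt-Atp6 fell by 2.34 ± 0.10 and mt-Atp8 by 1.44 ± 0.11 on the log2 scale. Against basal cells both fell with LPS + DEX, at -1.44 ± 0.10 for mt-Atp6 and -1.48 ± 0.11 for mt-Atp8.

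Counted together, all 6 members fell in footprints with LPS + DEX against LPS, where 3.55% of all 8847 tested genes fell and 3.14% rose. The members' groups did not overlap in any case, and 24.2% of all genes were lower without overlap. The members' count stayed at 6 in every alternative run, while the number of all genes that fell ran from 68 to 462 over the fits that each left out 1 library, against 314 with all of them. The fold changes ran from -2.41 to -1.44 with a median of -2.24, against 0.02 over all genes. With LPS against basal, 5 members rose, against 3.3% of all genes (4.32% fell), with a median of 1.17 against -0.07, and these 5 were also higher without overlap, as were 20.5% of all genes. For LPS + DEX against basal all 6 fell, against 2.86% of all genes (1.77% rose), with a median of -1.04 against -0.05, and all 6 were lower without overlap, as were 29.7% of all genes. In that comparison mt-Co1, mt-Co2 and mt-Co3 had the smallest falls, at -0.64, -0.60 and -0.59, and 3 members passed without RPF LPS + DEX replicate 1 and 3 without replicate 2. Over all genes the number that fell went down as well, with 69 and 58 in those fits against 253 with all libraries, and the mt-Co2 fold change was -0.60 in each. The comparisons share libraries: LPS + DEX against LPS and LPS against basal both contain the LPS libraries, so a value that is high there enters both with opposite sign.

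**Figure D2:**
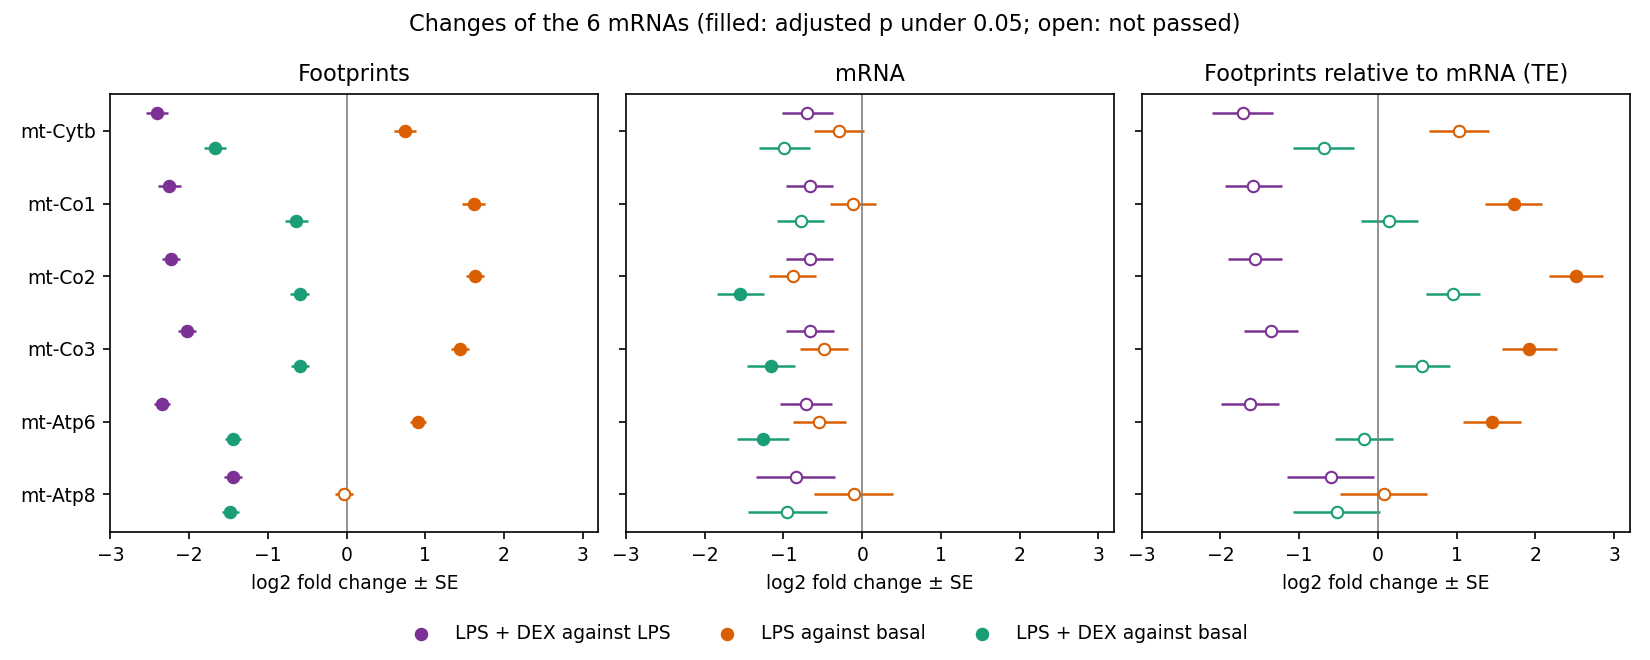
Log2 fold changes with standard errors for each member in footprints, mRNA and TE, the ratio of footprints to mRNA. Filled points had an adjusted p under 0.05 and open points did not. In footprints all 6 points for LPS + DEX against LPS lie between -2.41 and -1.44, and mt-Atp8 is the member near 0 for LPS against basal.

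In mRNA the members were lowest in the LPS + DEX group by mean, and in both treated groups the replicates of each member differed more than in footprints. They took 1.75% and 3.31% of mRNA reads with LPS + DEX, 4.69% and 3.17% with LPS, and 4.60% and 5.79% in basal cells. Replicate 1 of LPS + DEX was low for every member: mt-Co1 mRNA measured 6317 CPM there and 11779 CPM in replicate 2, and mt-Cytb 2140 and 4002 CPM. The LPS libraries held 16527 and 11389 CPM of mt-Co1 and 5981 and 3759 CPM of mt-Cytb, and the basal libraries 13454 and 16382 CPM of mt-Co1 and 5061 and 6655 CPM of mt-Cytb. LPS + DEX overlapped LPS for all 6 members (13.2% of all genes were lower without overlap). LPS was below basal without overlap for mt-Co2, mt-Co3 and mt-Atp6 (14.2% of all genes), and LPS + DEX for all but mt-Atp8 (16.6%).

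Relative to basal cells, mRNAs of mt-Co2, mt-Co3 and mt-Atp6 fell with LPS + DEX. The mt-Co2 mRNA measured 2778 and 5138 CPM with LPS + DEX, 7401 and 4870 CPM with LPS, and 10021 and 12217 CPM in basal cells. Its log2 fold change for LPS + DEX against basal was -1.55 ± 0.30 (limma, adjusted p = 0.0132). For mt-Co3 mRNA the values were 4121 and 8048 CPM with LPS + DEX, 10713 and 7810 CPM with LPS, and 11340 and 14486 CPM in basal cells, and the log2 fold change of LPS + DEX against basal was -1.15 ± 0.30 (adjusted p = 0.0327). The mt-Atp6 mRNA measured 1938 and 3774 CPM with LPS + DEX, 5681 and 3478 CPM with LPS, and 5782 and 7257 CPM in basal cells (-1.26 ± 0.33, adjusted p = 0.0327). mt-Cytb (-0.99 ± 0.32), mt-Co1 (-0.78 ± 0.29) and mt-Atp8 (-0.95 ± 0.50) did not pass. The 3 members that fell stand against 4.23% of all 9277 genes tested, with 18.5% higher. Scaling libraries by the median of ratios gave 708 genes higher and 837 lower in all, in place of 1714 and 392, and 5 members lower. Without mRNA LPS + DEX replicate 1, 0 members passed, but so did 0 of all genes in that direction and 1 in the other. Without replicate 2, 5 members passed with 206 genes lower in all, and without basal replicate 1 all 6 did with 435 genes lower. The mt-Co3 call was lost without mRNA LPS replicate 1 (adjusted p = 0.0593) or replicate 2 (adjusted p = 0.0599), and in a fit of only the LPS + DEX and basal libraries (adjusted p = 0.061). mt-Cytb passed without basal replicate 2 (-0.79, adjusted p = 0.0436).

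No member passed in mRNA for LPS + DEX against LPS or for LPS against basal. The log2 fold changes ran from -0.85 to -0.67 for LPS + DEX against LPS, where limma called 0 of 9277 genes (0.0% in each direction). An unadjusted p under 0.05 was reached by 183 of them, a smaller share than that threshold gives with no effect. The fit of reads by limma-voom called 0 members too. The intervals are wide: for mt-Co1 the 95% confidence interval ran from -1.36 to 0.02. For LPS against basal the fold changes ran from -0.88 (mt-Co2, adjusted p = 0.0962) to -0.11 (mt-Atp8), with 1.68% of all genes lower and 9.03% higher. The split over all genes there was 838 higher and 156 lower, or 190 and 332 with median-of-ratios scaling. These counts depended strongly on the libraries in the fit. They fell far when either mRNA LPS library was left out, and rose far without basal replicate 2. Leaving out either LPS + DEX library lowered them as well, although those libraries enter this comparison only through the shared spread. Why the counts moved was not tested. Without basal replicate 1 they were 730 and 133, and mt-Co2 passed (-1.02, adjusted p = 0.033). The mt-Atp8 mRNA was the least even within basal cells, at 324 and 861 CPM, against 183 and 405 CPM with LPS + DEX and 607 and 396 CPM with LPS.

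Relative to their mRNA, the members carried few footprints, mt-Atp8 apart. The ratio of mean footprint CPM to mean mRNA CPM compares shares of 2 kinds of library. Gene length cancels in it where both assays count the same stretch of a gene. For mt-Atp8, whose frame overlaps that of mt-Atp6, this is not known because the counting rule is not given. In basal cells it was 0.0257 for mt-Co3, 0.0283 for mt-Co2, 0.0549 for mt-Co1, 0.0822 for mt-Atp6, 0.111 for mt-Cytb and 0.594 for mt-Atp8. As a log2 level in limma the first 2 measured -5.28 ± 0.24 and -5.15 ± 0.24, while mt-Cytb measured -3.18 ± 0.27 and mt-Atp6 -3.59 ± 0.26. The members were measured in the same libraries, and differences between them were not tested. Footprints were lower than mRNA for 6 of 6 members with LPS + DEX (against 27.2% of 9412 genes), 5 of 6 with LPS (27.1%) and 5 of 6 in basal cells (17.3%). In the 3 conditions the median over members was -3.96 with LPS + DEX, -2.31 with LPS and -3.90 in basal cells, against -0.08, -0.06 and 0.21 over all genes. For mt-Atp8 the ratio differed widely between replicate numbers in basal cells (1.14 and 0.388) and its basal level of -0.59 ± 0.39 did not pass (adjusted p = 0.226), though without mRNA basal replicate 1 it was -1.29 and passed (adjusted p = 0.00286). Its call with LPS + DEX (-1.11 ± 0.39, adjusted p = 0.0301) was lost without RPF LPS + DEX replicate 1 (-1.20), RPF LPS + DEX replicate 2 (-1.02) or mRNA LPS + DEX replicate 2 (-0.54), and by limma-voom (adjusted p = 0.0831).

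The change in this ratio, translational efficiency (TE), was tested as the interaction of assay and treatment. With LPS against basal, TE rose for mt-Co2 (log2 2.51 ± 0.34, adjusted p = 0.00134), mt-Co3 (1.93 ± 0.35, adjusted p = 0.00378), mt-Co1 (1.73 ± 0.36, adjusted p = 0.00808) and mt-Atp6 (1.45 ± 0.37, adjusted p = 0.0187). The ratios behind the mt-Co2 value were 0.158 with LPS and 0.0283 in basal cells. mt-Cytb measured 1.03 ± 0.38 (adjusted p = 0.0816) and mt-Atp8 0.07 ± 0.55 (adjusted p = 0.939). These 4 of 6 stand against 3.08% of all genes higher in TE and 13.6% lower, where 290 genes were higher and 1277 lower, or 558 and 501 with median-of-ratios scaling. limma-voom on reads kept the direction and left mt-Co2 alone past the threshold, with 206 genes higher and 664 lower in all. The mt-Atp6 call was also lost without mRNA LPS replicate 2 (1.10), RPF basal replicate 2 (1.42) or RPF LPS replicate 2 (1.37). Each of these fits leaves 1 library in a group, and fewer of all genes passed there in both directions. mt-Cytb passed without mRNA basal replicate 1 (1.23), mRNA LPS replicate 1 (1.36) or either mRNA LPS + DEX replicate (1.03).

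With LPS + DEX against LPS, TE measured -1.72 ± 0.38 for mt-Cytb, -1.63 ± 0.37 for mt-Atp6, -1.58 ± 0.36 for mt-Co1, -1.56 ± 0.34 for mt-Co2, -1.36 ± 0.35 for mt-Co3 and -0.60 ± 0.55 for mt-Atp8. None passed over all genes (limma, adjusted p from 0.136 to 0.973). In this comparison limma called 1 gene higher and 4 lower of 9412 (0.0106% and 0.0425%). An unadjusted p under 0.05 was reached by 597, a share a little above what that threshold gives with no effect. In a fit of only the LPS + DEX and LPS libraries, 5 members passed, all but mt-Atp8, with 55 genes lower of 9370 in all. Likewise 5 passed without mRNA LPS + DEX replicate 1, with 11 genes lower of 9412. Without mRNA basal replicate 1 or replicate 2, which enter this comparison only through the shared spread, 4 passed, with 39 genes lower in either fit. For LPS + DEX against basal, TE ran from -0.69 ± 0.38 (mt-Cytb) to 0.95 ± 0.34 (mt-Co2, adjusted p = 0.0782), and no member passed, against 2.68% of genes higher and 12.2% lower. Without mRNA LPS + DEX replicate 2, mt-Co2 (1.40) and mt-Co3 (1.05) passed, without mRNA basal replicate 1 mt-Co2 did (1.10), and without mRNA basal replicate 2 mt-Atp8 did (-1.23). Over all genes 252 were higher and 1149 lower, or 506 and 358 with median-of-ratios scaling.

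**Figure D3:**
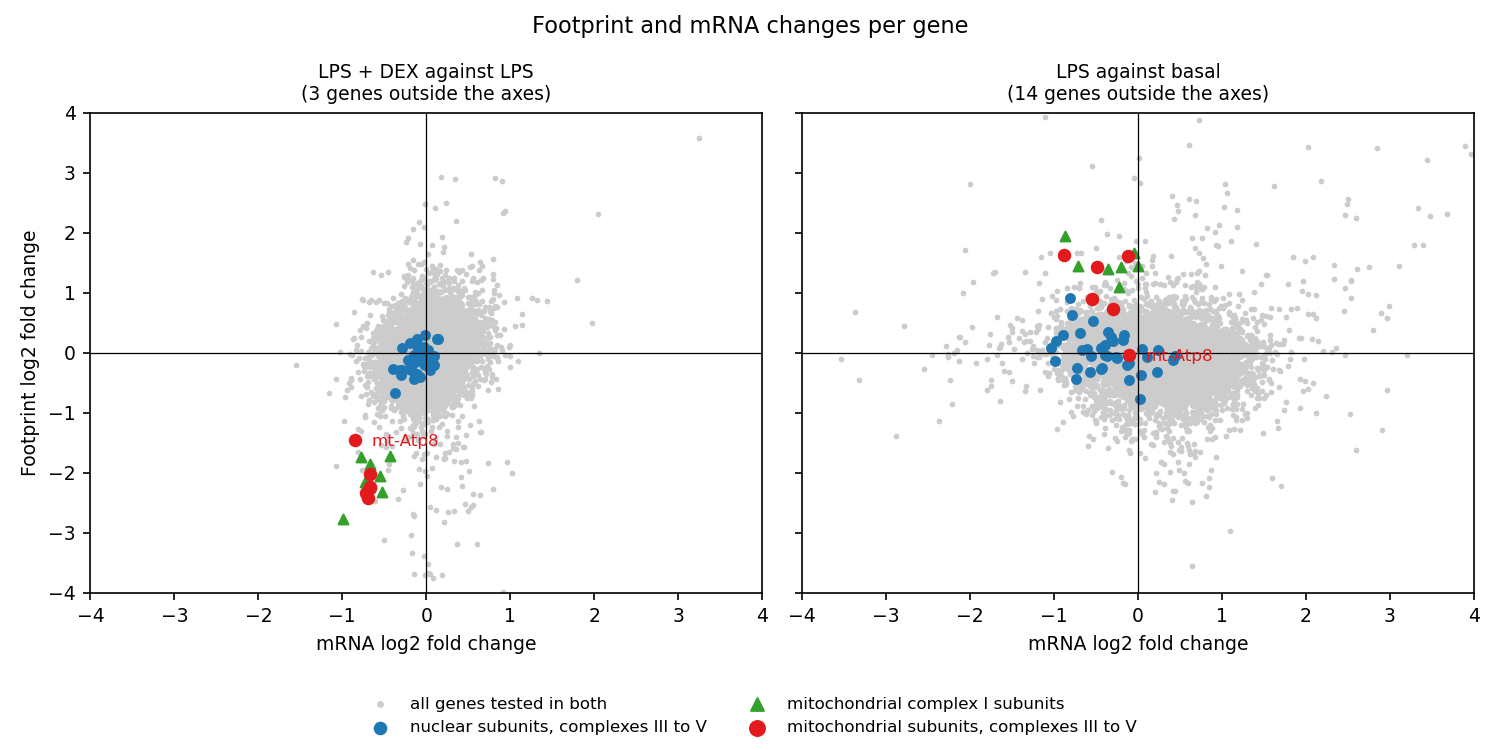
Footprint log2 fold change against mRNA log2 fold change for all genes tested in both assays, with the members in red. For LPS + DEX against LPS the members lie below all nuclear subunits of complexes III to V on the footprint axis, and for LPS against basal 5 of the 6 lie at 0.74 or above.

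Ratios between members within a library do not depend on how libraries are scaled, and they show where the members parted. These ratios were chosen after the values were seen and are given as a description. In mRNA, mt-Co2 over mt-Co1 was 0.440 and 0.436 with LPS + DEX, 0.448 and 0.428 with LPS, and 0.745 and 0.746 in basal cells. The treated libraries lay together and apart from the basal ones, although total levels of the members differed nearly 2-fold between the LPS + DEX replicates. mt-Co3 over mt-Co1 mRNA showed a like split, at 0.652 and 0.683 with LPS + DEX, 0.648 and 0.686 with LPS, and 0.843 and 0.884 in basal cells. mt-Atp6 over mt-Co1 mRNA was 0.307 and 0.320, 0.344 and 0.305, and 0.430 and 0.443 in the same order of groups. In footprints the mt-Co2 to mt-Co1 ratio overlapped across groups, between 0.352 and 0.450. There mt-Atp8 over mt-Atp6 was 0.626 and 0.647 with LPS + DEX, 0.349 and 0.334 with LPS, and 0.674 and 0.638 in basal cells, so that LPS lay apart. mt-Atp8 over mt-Co1 footprints separated all 3 groups, at 0.229 and 0.258 with LPS + DEX, 0.138 and 0.140 with LPS, and 0.379 and 0.502 in basal cells. Basal cells alone lay apart, and higher, for mt-Atp6 over mt-Co1 (0.365 and 0.399 with LPS + DEX, 0.397 and 0.419 with LPS, 0.563 and 0.787 in basal cells). They did so too for mt-Cytb over mt-Co1 (0.337 and 0.443 with LPS + DEX, 0.418 and 0.449 with LPS, 0.540 and 1.17 in basal cells). In mRNA the mt-Atp8 to mt-Atp6 ratio lay between 0.0560 and 0.119 and overlapped across groups, with both extremes in basal cells.

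**Figure D4:**
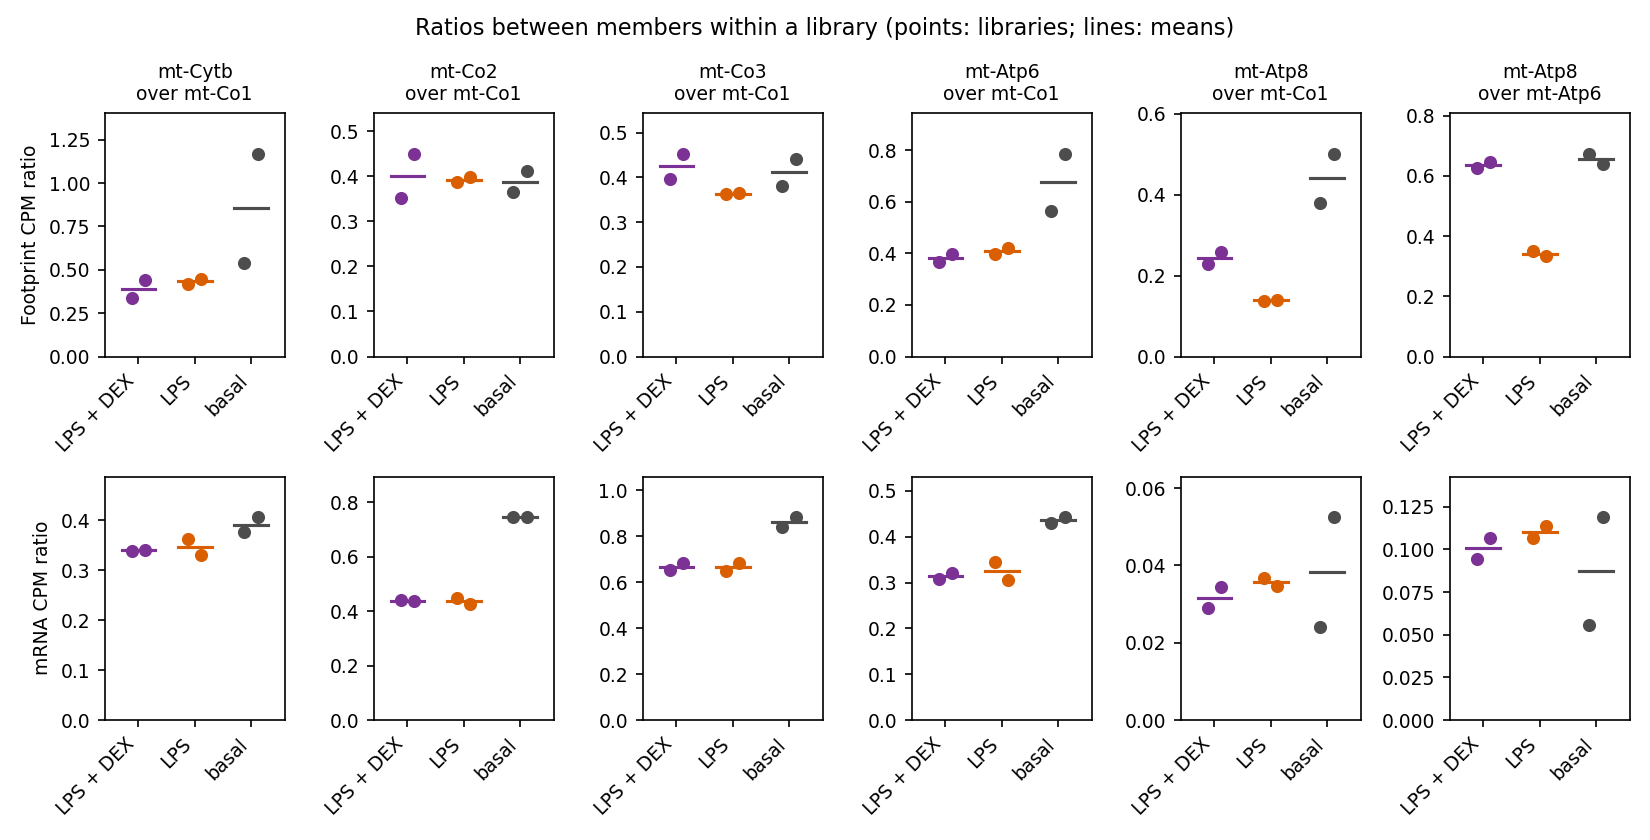
Ratios of CPM between members within each library, with footprints in the upper row and mRNA in the lower row. Points are libraries and lines are means (n = 2). The mt-Co2 to mt-Co1 mRNA ratio was 0.428 to 0.448 in the treated libraries and 0.745 to 0.746 in basal ones, and the mt-Atp8 to mt-Atp6 footprint ratio was lowest with LPS.

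The 7 mitochondrially encoded subunits of complex I (the mt-Nd genes) went the same way in footprints: 7 of 7 fell with LPS + DEX against LPS (median -2.05) and 7 of 7 rose with LPS against basal (median 1.44). For LPS + DEX against basal 3 of 7 fell, with a median of -0.48, while 6 of 6 members fell, against 2.86% of all genes. Of the members, mt-Co1, mt-Co2 and mt-Co3 no longer passed with no filter on low values, where fewer of all genes fell. Whether complex I differed from the members here was not tested. Footprints relative to mRNA were low for 7 of 7 as well, with medians of -3.06 with LPS + DEX, -2.09 with LPS and -4.25 in basal cells. TE rose for 7 of 7 with LPS against basal (median 1.71), so neither trait is particular to complexes III to V.

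Nuclear subunits of the same complexes were set beside the members, 38 of 42 being tested. In footprints, 0 rose and 4 fell with LPS + DEX against LPS (median -0.10), where 3.14% of all genes rose and 3.55% fell. With LPS against basal 4 rose and 4 fell (median -0.04), against 3.3% and 4.32% of all genes. Those that fell with DEX were Atp5mpl (-0.66 ± 0.15), Atp5f1 (-0.43 ± 0.08) and Atp5h (-0.41 ± 0.10) of ATP synthase and Cox6b1 (-0.36 ± 0.10) of complex IV. With LPS, Atp5k, a small membrane subunit of ATP synthase, rose by 0.91 ± 0.19, and Atp5g1, which encodes the subunit of the rotor ring, fell by 0.76 ± 0.14. Atp5mpl rose (0.54 ± 0.15) and Atp5c1, the central stalk subunit, fell (-0.45 ± 0.09). Uqcr10 of complex III rose by 0.64 ± 0.14, cytochrome c1, Cyc1, fell by 0.37 ± 0.11, and Ndufa4 of complex IV fell by 0.43 ± 0.11. In mRNA 0 of the 38 passed for LPS + DEX against LPS, as for the members. With LPS against basal 1 rose and 12 fell (median -0.38), against 9.03% and 1.68% of all genes (median 0.26). For LPS + DEX against basal 2 rose and 18 fell (median -0.46), against 18.5% and 4.23% of all genes (median 0.28). Among those that fell in the latter were Uqcrb (-1.28 ± 0.20), Atp5j (-1.26 ± 0.23), the ATP synthase inhibitor Atpif1 (-1.09 ± 0.12), Usmg5 (-1.01 ± 0.23) and Cox7b (-0.93 ± 0.17). Without mRNA LPS + DEX replicate 1, 0 of all genes passed as lower in that comparison, these included. For TE with LPS against basal, 13 were higher and 3 lower, against 3.08% and 13.6% of all genes. Their median was 0.38, against 1.59 for the members and -0.34 over all genes, and Atp5k (1.72 ± 0.29) was the highest. Median-of-ratios scaling gave 558 genes higher and 501 lower in all, in place of 290 and 1277.

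Among 28 tested factors that assemble complexes III to V, footprints of 2 fell and 0 rose with LPS + DEX against LPS. They were Coa3 (-0.88 ± 0.20) and Cox14 (-0.75 ± 0.18), which in human cells both act on newly made Co1 protein during assembly of complex IV. With LPS against basal Pet100, another complex IV assembly factor, rose (1.08 ± 0.26) and none fell. Of 32 genes of mitochondrial transcription, RNA handling and translation, 1 rose and 1 fell with LPS + DEX against LPS. With LPS against basal 1 rose and 0 fell. Over all tested genes 3.55% fell and 3.14% rose in the first comparison, and 3.3% rose and 4.32% fell in the second. Counts this small in lists of 28 and 32 lie near those shares and are not read as a result about either list. Slirp, an RNA-binding protein that stabilises mitochondrial mRNAs, was the gene that fell with DEX, at 62.6 CPM with LPS + DEX against 109 CPM with LPS (-0.80 ± 0.16, adjusted p = 0.00748). It was also the gene that rose with LPS (0.73 ± 0.16, adjusted p = 0.0128). Its mRNA measured 42.8 CPM with LPS + DEX, 61.2 CPM with LPS and 117 CPM in basal cells, and fell in both treated groups against basal (-1.43 ± 0.18 and -0.93 ± 0.18). The exonuclease Rexo2 rose with DEX (0.52 ± 0.14). Mitochondrial rRNAs were not analysed here.

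By likeness over the 12 libraries, measured as Pearson's r between log2(CPM + 1) of a gene and the mean of the 6 members, the members themselves had r of 0.990 to 0.998 except mt-Atp8 (0.748), and the complex I genes 0.954 to 0.993. Among 9274 other genes the nearest were Gm4076 (0.977), the stress-induced transcription factor gene Ddit3 (0.966), Chic2 (0.965), the phosphatase subunit gene Ppp2r5a (0.964) and Gm10709 (0.962). The 12 points fall into mRNA and footprint libraries, so these r largely describe the step between the assays. Gm4076 footprints averaged 7.23 CPM with LPS + DEX, 16.3 CPM with LPS and 14.0 CPM in basal cells, and Ddit3 footprints, at 1.15, 3.03 and 2.13 CPM in the same order, lay at or under the worth of 3 reads in a library of each group (1.64 to 3.65 CPM).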

How the data were processed

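Per the file headers and values, the deposited value is the authors' reads per gene scaled to the library total (CPM), plus 1, with 1 library per file and no scaling by length. After subtracting 1, all low values (100.0%) of each library were whole multiples of 1 read within 0.1 read, and total reads were recovered from that step. Listed genes held 97.4% to 98.9% of a library's reads. The sources used here do not name an aligner, build, annotation or counting rule, and coordinates and sequences are not shown. Of 9621 Ensembl identifiers 9521 matched a symbol in the name table.

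Genes reaching the CPM worth of 10 reads at median depth in 2 libraries, and 15 reads in total, were fitted on log2(CPM + 1) with limma 3.58.1 (trend, R 4.3.3), over 6 libraries per assay or all 12 for TE, with treatment groups as the only factor. Tests are two-sided, with Benjamini-Hochberg adjustment over all genes tested and a threshold of 0.05. Errors are limma SE, and SD is over 2 libraries. The fit was also run on simulated data. Replicates there spread less than the members' mRNA did here, so that run says little about these libraries. The design had named a count test in case the files held counts; they hold CPM. Alternatives were 2 scalings, 2 pseudocounts (2 and 0.5), 2 filters, fits of only the groups compared, a replicate block, leaving out each library, and limma-voom on reads (added after seeing the data). The members and gene lists were chosen with earlier results of these data known. Named genes are the members, up to 4 passing genes of each list, from the largest change down and with the nuclear subunits listed by complex, the 5 most alike in profile, and Tnf and Dusp1. Krt7 falls outside this rule. Intervals and read limits cover counting error only where they rest on reads.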

Additional observations from a re-analysis of the deposited data

How the results depend on the processing

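Over 72 member values (6 members in 12 comparisons), none that passed changed sign under any alternative. Scaling to totals without the 13 mitochondrially encoded mRNAs, log2(CPM + 2) and log2(CPM + 0.5) changed no call. The median-of-ratios scaling shifted the median gene by -0.26 and -0.29 (log2) in mRNA for the comparisons of LPS and LPS + DEX with basal, by 0.29 and 0.32 in their TE, and by -0.27 in the basal TE level. With it 5 members passed in mRNA for LPS + DEX against basal in place of 3, 5 in TE for LPS against basal in place of 4, and 1 in TE for LPS + DEX against basal in place of 0. The stricter filter also gave 1 in that TE comparison, and 4 in mRNA for LPS + DEX against basal. Without a filter on low values 3 members passed in footprints for LPS + DEX against basal in place of 6. Over all genes 74 were lower in that fit in place of 253. Nor did mt-Cytb pass there in footprints for LPS against basal, with 145 genes higher in all in place of 292. limma-voom gave 1 in TE for LPS against basal in place of 4, with 206 genes higher in all in place of 290. With only the groups compared, 5 passed in TE for LPS + DEX against LPS in place of 0, and 2 in mRNA for LPS + DEX against basal in place of 3. Leaving out each library in turn gave 0 to 1 members in mRNA for LPS against basal, 0 to 6 in mRNA for LPS + DEX against basal, 3 to 6 in footprints for LPS + DEX against basal, 0 to 5 in TE for LPS + DEX against LPS, and 0 to 2 in TE for LPS + DEX against basal. The library left behind in a group is then assumed to vary like the others. The cause of these shifts was not tested. The planned count-based tests were not run on CPM. Replicate numbers showed no pairing: deviations of same-numbered libraries correlated at -0.161 to 0.097 over 15 pairs of groups. The replicate block kept every call, with 6 members lower in footprints for LPS + DEX against LPS, and pairing RPF with mRNA by number changed 1 call (mt-Cytb TE, LPS against basal, adjusted p = 0.0425). Depth was 216 to 2085 reads per member and RPF library.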
